A study of Mus musculus with 12 samples.

Results

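Livers of chow-fed PPARα KO mice (KO chow) were compared directly with livers of WT mice on CDAHFD (WT CDAHFD), the 2 states of this study in which either the gene or the diet was changed. The samples were chosen by the genotype and diet in their labels, which gave 2 KO chow and 3 WT CDAHFD libraries, 5 of the 12 in the series. The other libraries are 4 of WT mice on chow (WT chow) and 3 of KO mice on CDAHFD (KO CDAHFD). All mice were male C57BL/6J carrying the floxed allele, PPARafl/fl AlbuminCreTg/+ in the KO groups and PPARafl/fl AlbuminCre+/+ in the WT groups, were put on their diet at 7 weeks of age and were killed after 6 weeks of it, at 13 weeks. CDAHFD is a high-fat diet of defined amino acids that lacks choline, and the chow was a standard diet. Cre driven by the albumin promoter deletes Ppara in hepatocytes, so that other liver cells of the KO mice keep the gene. Genotype and diet both differ between KO chow and WT CDAHFD and cannot be told apart in this comparison, so the levels in WT chow and KO CDAHFD are given beside it for the main genes. The study's methods give 3 mice per group, whereas WT chow has 4 libraries and KO chow 2, and libraries are treated here as separate mice.

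PPARα is a nuclear receptor that binds fatty acids and, with RXR, switches on hepatic genes for fatty acid uptake, activation, oxidation and ketogenesis. Lipogenesis runs the other way and builds fatty acids from citrate under the control of SREBP-1c and ChREBP, and stearoyl-CoA desaturase 1 (Scd1) turns its saturated products into monounsaturated ones. A diet without choline limits phosphatidylcholine and thereby the export of triglyceride in VLDL, so fat stays in the liver. In fatty, inflamed livers resident Kupffer cells, which carry Timd4 and Clec4f, are joined by monocyte-derived lipid-associated macrophages, which carry Trem2, Gpnmb and Spp1 and degrade lipid in lysosomes.

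Total counts were 35475528 and 40201211 in the KO chow libraries and 40071946 to 43551003 in WT CDAHFD, and the lowest of the series was 29906785. Of 17358 genes tested, 1063 (6.12%) differed between KO chow and WT CDAHFD at an adjusted p under 0.05 from edgeR's quasi-likelihood test, 470 (2.71%) higher and 593 (3.42%) lower in KO chow. The groups did not overlap in any of the 1063 genes, nor in 48.6% of all genes tested. At an unadjusted p under 0.05 from the same test there were 4168 of the 17358 genes. This is the background for the counts of list members at that threshold given below. A list count near that share is no result about the list. The median absolute log2 fold change of the called genes was 1.01, and 177 of the higher and 361 of the lower genes changed by at least 1. The number of calls depended on single libraries. It was 357, 376 and 622 without WT CDAHFD replicate 1, 2 and 3, and 260 and 584 without KO chow replicate 1 and 2, where the remaining KO chow library was assumed to vary like the other groups. The calls higher in KO chow also fell to 308 without KO CDAHFD replicate 1. With total counts as the only scaling the log2 fold change of the median gene moved from 0.0037 to -0.15, and the calls were 242 higher and 1025 lower. Values in parentheses before an adjusted p are log2 fold changes, where a log2 fold change is KO chow minus WT CDAHFD, and CPM is the count of a gene relative to the TMM-scaled size of its library, on the usual scale of that unit. Clock genes differed among libraries of the same group: their score was 1.5 and -1.1 in the KO chow libraries and 0.243 to 0.958 in WT CDAHFD, and none of the 18 clock genes was called in the comparison, by edgeR, by DESeq2 or at an unadjusted p under 0.05.

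**Figure D1:**
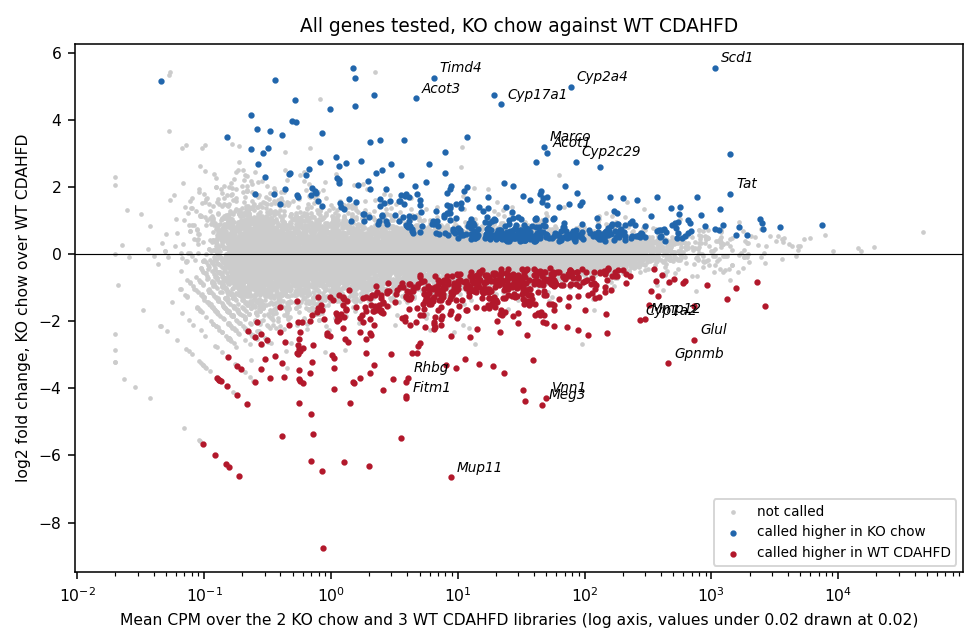
Each point is a gene; the x axis gives its mean CPM over the 5 libraries on a log scale and the y axis its log2 fold change of KO chow over WT CDAHFD. The 470 genes called higher in KO chow (blue) reach 5.55 with Scd1 among the labelled genes, and the 593 called lower (red) include Mup11 at -6.66.

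Ppara itself (ENSMUSG00000022383, chr15:85734983-85802819) had 14.4 and 38.7 CPM in KO chow and 59.5, 75.5 and 73.5 CPM in WT CDAHFD. The KO chow values were the lower ones and did not overlap with WT CDAHFD, but the difference did not pass the threshold (-1.39, SE 0.49, adjusted p = 0.107). WT chow had 120.1, 96.2, 238 and 226 CPM and KO CDAHFD 36.3, 20.7 and 51.9 CPM, so both compared groups stood below every WT chow library. These counts hold reads over the whole gene and from all liver cells, and do not measure functional receptor. The difference passed the threshold with DESeq2 (-1.42, adjusted p = 0.0201), with only the 5 libraries compared (-1.40, adjusted p = 0.0434), with no filter on low counts (-1.40, adjusted p = 0.00432) and with the clock score as a covariate (-1.65, adjusted p = 0.00349).

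Among the genes of fatty acid synthesis and desaturation, Scd1 differed most. Scd1 (ENSMUSG00000037071, chr19:44394455-44407879) had 1781 and 3371 CPM in KO chow and 89.6, 49.3 and 26.1 CPM in WT CDAHFD. Every KO chow library was over 10 times above every WT CDAHFD library, 46.8-fold on average (5.55, SE 0.51, adjusted p = 0.00013). Scd1 had 1919, 2926, 5080 and 2934 CPM in WT chow and 89.7, 96.1 and 116 CPM in KO CDAHFD. Both chow groups were thus high and both CDAHFD groups low, and KO CDAHFD differed from KO chow by -4.68 (adjusted p = 0.000392) and from WT CDAHFD by 0.87 (adjusted p = 0.587).

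Of the 11 lipogenesis enzymes, 4 were called higher in KO chow and 0 lower, and their median log2 fold change was 0.49, against 0.0037 over all genes tested. Scd1, Acly, Me1 and Slc25a1 were those that passed. Acly, ATP citrate lyase, which releases acetyl-CoA from citrate, had 249 and 249 CPM in KO chow and 125, 131 and 148 CPM in WT CDAHFD (0.88, adjusted p = 0.00155). Me1, the malic enzyme that provides NADPH, had 104 and 97.8 CPM in KO chow and 38.4, 32.7 and 42.9 CPM in WT CDAHFD (1.41, adjusted p = 0.0157). Slc25a1, the mitochondrial citrate carrier, had 226 and 203 CPM in KO chow and 153, 143 and 159 CPM in WT CDAHFD (0.50, adjusted p = 0.0311). Acly and Scd1 kept their calls under each alternative fit. An alternative fit changes the method, scaling, filter or libraries. A threshold of 1 on the absolute log2 fold change was applied only to the fit reported here, and genes under it, such as Acly, miss it. Losses under a replicate block are counted with the limits of processing and not gene by gene. The call of Me1 was lost without WT CDAHFD replicate 1 or 2 or KO chow replicate 1 or 2 (adjusted p = 0.0532 to 0.106), and that of Slc25a1 without WT CDAHFD replicate 1, 2 or 3, KO chow replicate 1 or 2 or KO CDAHFD replicate 1 (adjusted p = 0.0524 to 0.207) or with total counts as the only scaling (adjusted p = 0.0638). The central enzymes were not called. Fasn, fatty acid synthase, had 229 and 227 CPM in KO chow and 156, 200.2 and 187 CPM in WT CDAHFD (0.33, adjusted p = 0.431). Acaca, acetyl-CoA carboxylase, had 80.8 and 126 CPM in KO chow and 73.2, 74.9 and 73.4 CPM in WT CDAHFD (0.49, adjusted p = 0.206). The summed level of the 11 genes was 2965 and 4580 CPM in KO chow and 887 to 920.1 CPM in WT CDAHFD, most of the gap being Scd1, with 3560 to 7412 CPM in WT chow and 954 to 1030 CPM in KO CDAHFD.

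Among the regulators of lipogenesis, 2 of 9 were called, both higher in KO chow (list median 0.60). Thrsp, the lipogenic protein Spot 14, had 24 and 16 CPM in KO chow and 5.57, 6.6 and 7.08 CPM in WT CDAHFD (1.64, adjusted p = 0.00138), against 78.7, 122, 106 and 137 CPM in WT chow and 11.8, 14.6 and 13.7 CPM in KO CDAHFD. KO chow was therefore above WT CDAHFD but below all WT chow libraries (KO chow minus WT chow -2.48, adjusted p = 5.55e-06). Insig1, which holds the SREBP complex in the endoplasmic reticulum, had 244 and 249 CPM in KO chow and 127, 179 and 145 CPM in WT CDAHFD (0.71, adjusted p = 0.0312), a call that ended without WT CDAHFD replicate 1 or 3 or KO chow replicate 1 or 2 (adjusted p = 0.0904 to 0.145) or with total counts as the only scaling (adjusted p = 0.0715). Srebf1, the gene of SREBP-1, lay at the threshold with 140.3 and 234 CPM in KO chow and 87.5, 83.3 and 103 CPM in WT CDAHFD (1.03, adjusted p = 0.0503). It passed with no filter on low counts (adjusted p = 0.00139), with only the 5 libraries compared (adjusted p = 0.021), with the clock score as a covariate (adjusted p = 0.0345), with DESeq2 (adjusted p = 0.0109), without WT chow replicate 1 (adjusted p = 0.0198), without WT chow replicate 3 (adjusted p = 0.037) and without KO CDAHFD replicate 3 (adjusted p = 0.043). Srebf1 overlaps Rai1 and can share reads with it. Of 12 desaturases and elongases, Scd1, Elovl2, Elovl5 and Fads1 were called higher and none lower. Elovl2, which elongates polyunsaturated fatty acids, had 642 and 913 CPM in KO chow and 378, 389.9 and 425 CPM in WT CDAHFD (0.97, adjusted p = 0.00314) and kept its call under each alternative fit. Elovl5 (0.94, adjusted p = 0.0164) and Fads1 (0.63, adjusted p = 0.0169), which act in the same polyunsaturated pathway, did not overlap between groups either. The call of Elovl5 ended without WT CDAHFD replicate 1, 2 or 3 or KO chow replicate 1 or 2 (adjusted p = 0.0518 to 0.0829) and that of Fads1 without WT CDAHFD replicate 1 or 2 or KO chow replicate 1 or 2 (adjusted p = 0.0633 to 0.0964) or with total counts as the only scaling (adjusted p = 0.06).

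The promoter of Thrsp is shown because this gene kept its call and its window holds 2 CCAAT boxes, the letters that NF-Y binds beside SREBP at lipogenic promoters. It is 60 bases from RefSeq (GRCm38.p6), 5′ to 3′ on the gene's strand, chosen after the matches were seen, with CCAAT on either strand in capitals:
Thrsp (chr7:97417570-97417629, minus strand): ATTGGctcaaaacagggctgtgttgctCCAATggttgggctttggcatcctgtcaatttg
Of the 300-base promoters, from 250 bases before to 50 after the start, CCAAT was present in 44.2% for genes called higher in KO chow, 35% for genes called lower and 37.2% for all tested genes with an entry (12138 genes, 15487 promoters). The sterol regulatory element TCACNCCAC was present in 2.05%, 1.64% and 1.24%, in the same order. Both were searched on both strands, without a test. The table has no entry for Scd1.

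Genes of sterol synthesis showed no such one-sided difference. Of 23, Sc5d (0.66, adjusted p = 0.0174) and Ebp (0.68, adjusted p = 0.0284), both late enzymes of cholesterol synthesis, were called higher in KO chow and Srebf2, the regulator of the pathway (-0.54, adjusted p = 0.0128), was called lower. The list median was -0.17. The call of Sc5d was lost without WT CDAHFD replicate 1 or 2 or KO chow replicate 1 or 2 (adjusted p = 0.0625 to 0.088), that of Ebp without WT CDAHFD replicate 1, 2 or 3 or KO chow replicate 1 (adjusted p = 0.0502 to 0.267) or with total counts as the only scaling (adjusted p = 0.0541) and that of Srebf2 without WT CDAHFD replicate 2 or KO chow replicate 2 (adjusted p = 0.0545 to 0.0827).

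Genes of fatty acid oxidation, the classical targets of PPARα, did not separate the states as a group. Of 22 genes of peroxisomal oxidation 2 were called higher and 2 lower (median -0.06), and of 20 genes of mitochondrial oxidation and ketogenesis 0 higher and 2 lower (median -0.11). Of the latter, DESeq2 called 0 higher and 6 lower, and at an unadjusted p under 0.05 there were 1 higher and 6 lower. Cpt1a, which carries long-chain fatty acids into mitochondria, had 326 and 590.3 CPM in KO chow and 582, 502 and 499.9 CPM in WT CDAHFD, and the groups overlapped (-0.21, adjusted p = 0.763). Among the genes that passed, Decr2, the peroxisomal 2,4-dienoyl-CoA reductase, had 60 and 68.5 CPM in KO chow and 171, 149 and 159.9 CPM in WT CDAHFD (-1.32, SE 0.19, adjusted p = 0.00216) and kept its call under each alternative fit. The acyl-CoA dehydrogenases Acads (-0.59, adjusted p = 0.0314) and Acadvl (-0.51, adjusted p = 0.03) were lower in KO chow by smaller amounts. Their calls ended without WT CDAHFD replicate 1 or 3, KO chow replicate 1 or 2 or KO CDAHFD replicate 1 (adjusted p = 0.0512 to 0.16) for Acads and without WT CDAHFD replicate 1, 2 or 3, KO chow replicate 1 or 2 or KO CDAHFD replicate 1 (adjusted p = 0.0506 to 0.152) for Acadvl. Cyp4a14, a fatty acid omega-hydroxylase, had 118 and 143 CPM in KO chow and 157, 137 and 149 CPM in WT CDAHFD (-0.17, adjusted p = 0.921), and of the 14 Cyp4 genes Cyp4b1 (0.87, adjusted p = 0.0475) was the one call, higher in KO chow, which ended without WT CDAHFD replicate 1, 2 or 3, KO chow replicate 1 or 2 or KO CDAHFD replicate 1, 2 or 3 (adjusted p = 0.0517 to 0.217) or with total counts as the only scaling (adjusted p = 0.0971) or with the size factors of DESeq2 (adjusted p = 0.0559).

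The acyl-CoA thioesterases, which split fatty acyl-CoA into free fatty acid and coenzyme A, were on the KO chow side. Of 12 tested, 6 were called higher and 1 lower, with a median of 0.59, and the summed level was 452 and 444 CPM in KO chow and 254 to 262 CPM in WT CDAHFD. Acot1 (ENSMUSG00000072949, chr12:84009490-84018371), the cytosolic form, had 131 and 81 CPM in KO chow and 13.8, 12.4 and 12.9 CPM in WT CDAHFD (3.02, SE 0.31, adjusted p = 0.000216). It had 23.8, 20.8, 22.5 and 10.8 CPM in WT chow and 34.3, 34.4 and 20.9 CPM in KO CDAHFD, so KO chow stood above all other groups. Acot3, a peroxisomal form, had 9.36 and 12.8 CPM in KO chow and 0.389, 0.33 and 0.612 CPM in WT CDAHFD (4.64, SE 0.64, adjusted p = 0.00146). Acot4, also peroxisomal, had 67.3 and 86.1 CPM in KO chow and 20.8, 29.5 and 27.4 CPM in WT CDAHFD (1.57, adjusted p = 0.0177). Them4, a mitochondrial thioesterase, had 21.2 and 20.6 CPM in KO chow and 13.4, 15.7 and 12.7 CPM in WT CDAHFD (0.59, adjusted p = 0.0208). Acot1 and Acot3 kept their calls under each alternative fit. Acot4 lost its call without WT CDAHFD replicate 1 or 2 or KO chow replicate 1 or 2 (adjusted p = 0.0518 to 0.0843) and Them4 without WT CDAHFD replicate 1 or 3 or KO chow replicate 1 or 2 (adjusted p = 0.0634 to 0.152) or with total counts as the only scaling (adjusted p = 0.0988). The Acot genes are close paralogs and can exchange reads, and Acot3 overlaps 4732463B04Rik. The count fell to 3 with total counts as the only scaling, and to 2 without KO chow replicate 1 or 2 or WT CDAHFD replicate 1 and 3 without WT CDAHFD replicate 2 or 3.

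**Figure D2:**
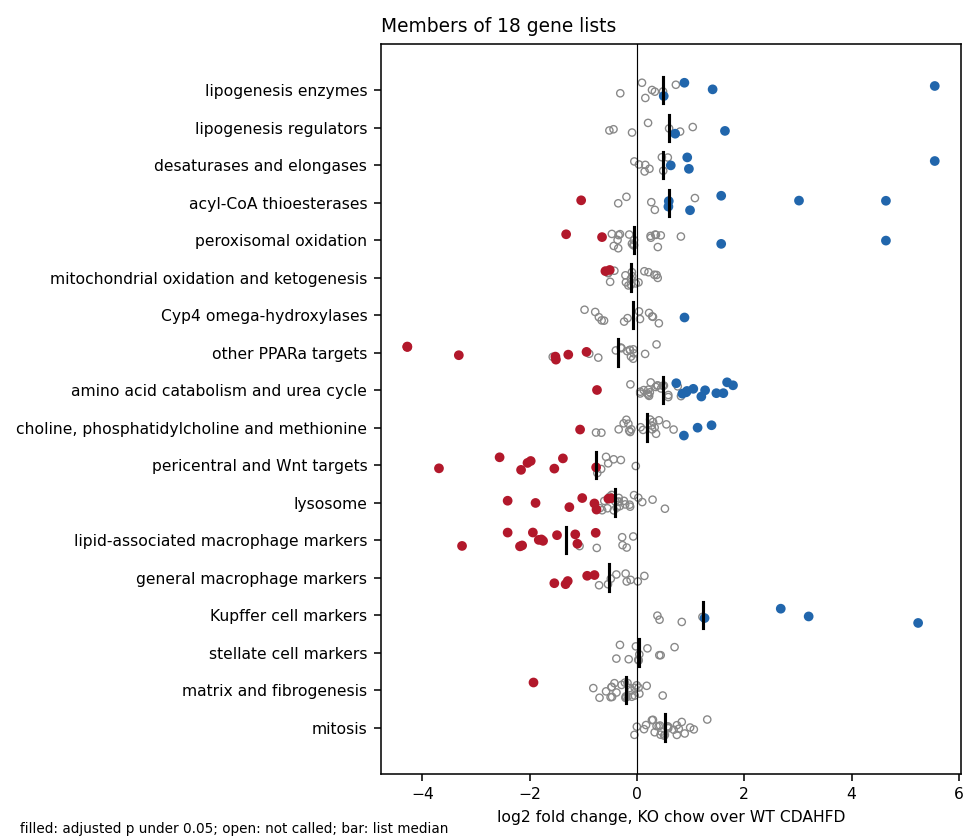
Each circle is a list member at its log2 fold change of KO chow over WT CDAHFD, filled blue where called higher in KO chow, filled red where called lower and open where not called, with a bar at the list median. Medians lie at -1.32 for the lipid-associated macrophage markers, -0.76 for the pericentral genes and 1.24 for the Kupffer cell markers, and near 0 for both oxidation lists.

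In another set of PPARα targets, those of fatty acid uptake, lipid droplets and energy coupling, every call was lower in KO chow. Of 22 tested, 7 were called lower and 0 higher in KO chow by edgeR, as by DESeq2, with 8 lower and 0 higher at an unadjusted p under 0.05 (median -0.35). Vnn1 (ENSMUSG00000037440, chr10:23894688-23905343), a pantetheinase of the coenzyme A pathway, had 5.49 and 2.81 CPM in KO chow and 87.9, 84.4 and 68.5 CPM in WT CDAHFD (-4.28, SE 0.40, adjusted p = 0.00013), or 19.4-fold more in WT CDAHFD. WT chow lay between them with 31.4, 21.6, 28.7 and 12.5 CPM, and KO CDAHFD had 10.8, 13.4 and 13.1 CPM. Relative to WT chow, Vnn1 was at -2.51 (adjusted p = 0.000142) in KO chow and 1.77 (adjusted p = 0.000143) in WT CDAHFD on the log2 scale, so the 2 states stood on opposite sides of WT chow. Fitm1 (ENSMUSG00000022215, chr14:55575617-55576954), which takes part in lipid droplet formation and overlaps Gm15932, had 0.435 and 0.218 CPM in KO chow and 8.75, 5.3 and 5 CPM in WT CDAHFD (-4.28, SE 0.59, adjusted p = 0.00146). Both KO groups were low, with 0.921, 0.401 and 1.36 CPM in KO CDAHFD, while WT chow had 5.94, 6.48, 13.6 and 6.79 CPM. Plin4 (ENSMUSG00000002831, chr17:56100591-56109803), a coat protein of lipid droplets that overlaps Hdgfl2, had 3.21 and 2.74 CPM in KO chow and 37.1, 25.4 and 26.8 CPM in WT CDAHFD (-3.32, SE 0.34, adjusted p = 0.000217). Its WT chow level, 4.23, 2.46, 5.47 and 4.86 CPM, enclosed that of KO chow, and KO CDAHFD, with 12.7, 8.55 and 14.5 CPM, lay between the 2 states. Slc27a1, a fatty acid transport protein, had 8.92 and 8.68 CPM in KO chow and 25.6, 26.6 and 23.6 CPM in WT CDAHFD (-1.52, SE 0.18, adjusted p = 0.000763). These 4 genes kept their calls under each alternative fit.

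The other called targets that are named changed less. Cd36, the fatty acid translocase, had 123 and 184 CPM in KO chow and 468, 492 and 350 CPM in WT CDAHFD (-1.51, adjusted p = 0.00458). Ucp2, a mitochondrial carrier, had 60 and 80.3 CPM in KO chow and 192, 165 and 155 CPM in WT CDAHFD (-1.28, adjusted p = 0.00458). Plin5, which couples droplets to mitochondria, had 23.8 and 18.7 CPM in KO chow and 46.8, 34.4 and 41 CPM in WT CDAHFD (-0.94, adjusted p = 0.0424). The groups did not overlap in any of these 3, of which Cd36 and Ucp2 were named after their values were seen. Their calls ended without KO chow replicate 1 (adjusted p = 0.0793) for Cd36, without KO chow replicate 1 (adjusted p = 0.0756) for Ucp2 and without WT CDAHFD replicate 1, 2 or 3, KO chow replicate 1 or 2 or KO CDAHFD replicate 1 (adjusted p = 0.0526 to 0.167) for Plin5. Cd36 and Ucp2 are also expressed by macrophages, whose markers of the lipid-associated state were lower in KO chow too, and that part was not tested. The count of called targets was 4 without KO chow replicate 1. Several well known targets were not called. The hormone gene Fgf21 had 38.7 and 33.7 CPM in KO chow and 34.4, 67.7 and 16.6 CPM in WT CDAHFD and overlapped (-0.13, adjusted p = 0.927). The droplet protein gene Plin2 had 719.8 and 563 CPM in KO chow and 914, 798 and 662 CPM in WT CDAHFD and overlapped too (-0.30, adjusted p = 0.477). Cidec, which fuses lipid droplets, had 20.7 and 21.7 CPM in KO chow and 39.2, 41.9 and 23.6 CPM in WT CDAHFD (-0.72, adjusted p = 0.221). Of 24 genes of lipid droplets and triglyceride turnover, Hsd17b13, a droplet dehydrogenase, was the one called higher in KO chow, with 845 and 804 CPM in KO chow and 562, 492 and 543 CPM in WT CDAHFD (0.63, adjusted p = 0.02), and Fitm1, Plin4 and Plin5 were the 3 called lower. The Hsd17b13 call ended without WT CDAHFD replicate 1, 2 or 3 or KO chow replicate 1 or 2 (adjusted p = 0.0536 to 0.121).

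**Figure D3:**
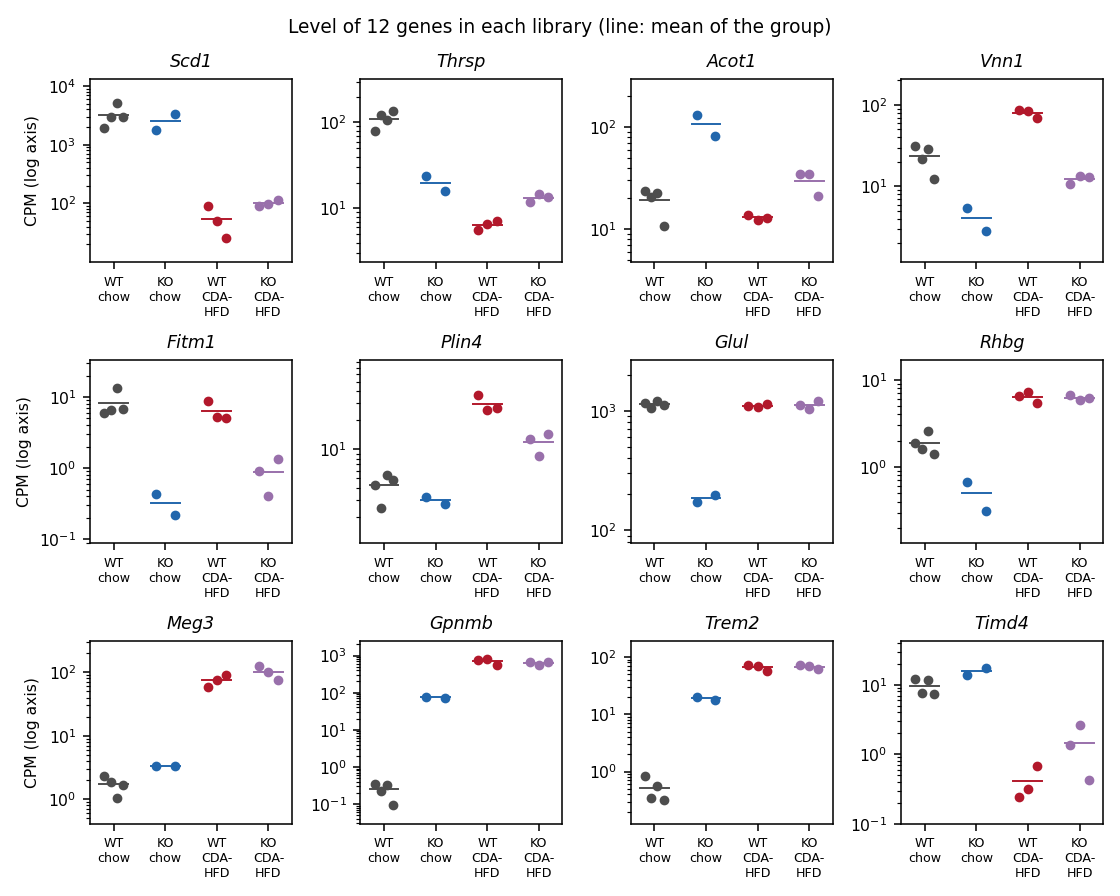
Each panel is a gene, each point a library and each line the mean of its group, with CPM on a log axis and the 4 groups on the x axis. Scd1 and Timd4 are low in both CDAHFD groups, Glul is low in KO chow alone, Fitm1 is low in both KO groups, and Meg3, Gpnmb and Trem2 are highest in both CDAHFD groups.

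Genes of pericentral hepatocytes, which lie around the central vein and depend on Wnt signalling, were on the WT CDAHFD side. Of 15 tested, 8 were called lower and 0 higher by edgeR, all 15 log2 fold changes were negative, and the median was -0.76. DESeq2 called 8 lower and 0 higher, and at an unadjusted p under 0.05 there were 10 lower and 0 higher. Glul (ENSMUSG00000026473, chr1:153899944-153909723), glutamine synthetase, which detoxifies ammonia in the last hepatocytes before the vein, had 174 and 199 CPM in KO chow and 1086, 1066 and 1144 CPM in WT CDAHFD (-2.56, SE 0.14, adjusted p = 2.22e-06), or 5.9-fold more in WT CDAHFD. It had 1150, 1061, 1206 and 1114 CPM in WT chow and 1120, 1033 and 1205 CPM in KO CDAHFD. KO chow was thus the one group with a low level, and KO CDAHFD differed from WT CDAHFD by 0.03 (adjusted p = 0.967). Rhbg (ENSMUSG00000104445, chr3:88242874-88254709), an ammonium transporter of the same cells, had 0.68 and 0.315 CPM in KO chow and 6.51, 7.22 and 5.44 CPM in WT CDAHFD (-3.69, SE 0.35, adjusted p = 0.00013). WT chow had 1.9, 1.6, 2.6 and 1.42 CPM and KO CDAHFD 6.67, 5.78 and 6.23 CPM, so KO chow was again the lowest group and both CDAHFD groups were the highest. Slc13a3, a dicarboxylate transporter, had 15.7 and 17 CPM in KO chow and 75.2, 65.8 and 60.1 CPM in WT CDAHFD (-2.04, SE 0.18, adjusted p = 9.4e-05). Its level in KO chow lay within that of WT chow, 18.8, 13.8, 14.1 and 12.1 CPM, and KO CDAHFD had 70.4, 65.2 and 59.1 CPM. Cyp1a2, a drug-metabolizing cytochrome P450, had 86 and 111 CPM in KO chow and 396, 364 and 405 CPM in WT CDAHFD (-1.98, SE 0.19, adjusted p = 0.00013). WT chow had 445, 588, 488 and 551 CPM and KO CDAHFD 425, 503 and 354 CPM of it, so that KO chow alone was low, as for Glul.

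These 4 pericentral genes kept their calls under each alternative fit. The remaining called members were named after their values were seen. Slc1a2, a glutamate transporter, had 20.6 and 26.8 CPM in KO chow and 111, 91.7 and 115 CPM in WT CDAHFD (-2.16, adjusted p = 0.0145). Cyp2e1, the ethanol-oxidizing cytochrome P450, had 969 and 1497 CPM in KO chow and 4145, 3137 and 3510 CPM in WT CDAHFD (-1.54, adjusted p = 0.00744). Lgr5, a receptor that amplifies Wnt signals, had 4.08 and 5.77 CPM in KO chow and 14.8, 11.3 and 12.3 CPM in WT CDAHFD (-1.38, adjusted p = 0.0328). The groups did not overlap in these 3 or in Lect2, a secreted hepatocyte protein gene with 108 and 104 CPM in KO chow and 185, 174 and 180.4 CPM in WT CDAHFD (-0.76, adjusted p = 0.0145). Slc1a2 lost its call without KO chow replicate 1 or 2 (adjusted p = 0.0561 to 0.152), Cyp2e1 without KO chow replicate 1 (adjusted p = 0.0982), Lgr5 without WT CDAHFD replicate 1, 2 or 3 or KO chow replicate 1 or 2 (adjusted p = 0.0649 to 0.262) and Lect2 without WT CDAHFD replicate 1 or KO chow replicate 1 or 2 (adjusted p = 0.0571 to 0.0814). The count of called members was 4 when KO chow replicate 1 was left out and 5 when replicate 2 was.

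Enzymes of amino acid breakdown and the urea cycle, which are most active in periportal hepatocytes, lay mostly on the KO chow side. Of 32 tested, 11 were called higher and 1 lower, 30 had a positive log2 fold change, and the median was 0.49. Gls2, the liver glutaminase, had 375 and 494 CPM in KO chow and 145, 112 and 169.9 CPM in WT CDAHFD (1.61, adjusted p = 0.00146). Asl, argininosuccinate lyase, had 298 and 335 CPM in KO chow and 171, 158 and 174 CPM in WT CDAHFD (0.92, adjusted p = 0.00453). Both KO chow libraries were above the 3 WT CDAHFD libraries in each of them and in Slc25a15, the mitochondrial ornithine carrier, with 394 and 423 CPM in KO chow and 237, 212 and 233 CPM in WT CDAHFD (0.85, adjusted p = 0.00244). These 3 kept their calls under each alternative fit. The list median relative to WT chow was -0.76 for KO chow and -1.18 for WT CDAHFD, comparisons that share the WT chow libraries. The number of members called higher was 6 without WT CDAHFD replicate 2 or KO chow replicate 2, and leaving out KO chow replicate 1 gave 7.

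The calls among hepatocyte markers were in the same direction. Of 10, 3 were called higher in KO chow and 0 lower (median 0.60; DESeq2 called 6 and 0, unadjusted p under 0.05 8 and 0). Their summed level was 80990 and 94440 CPM in KO chow and 47720 to 57700 CPM in WT CDAHFD, against 92330 to 110400 CPM in WT chow and 46750 to 61460 CPM in KO CDAHFD. Tat, tyrosine aminotransferase, had 2421 and 2518 CPM in KO chow and 756, 941 and 443 CPM in WT CDAHFD (1.79, SE 0.30, adjusted p = 0.00458) and kept its call under each alternative fit. Ahsg, the plasma protein fetuin-A, had 8895 and 11460 CPM in KO chow and 5986, 5139 and 5623 CPM in WT CDAHFD (0.87, adjusted p = 0.0134). Ttr, transthyretin, had 4610 and 4683 CPM in KO chow and 2664, 2366 and 3004 CPM in WT CDAHFD (0.80, adjusted p = 0.0209). Ahsg lost its call without WT CDAHFD replicate 2 or KO chow replicate 2 (adjusted p = 0.0629 to 0.0859) and Ttr without WT CDAHFD replicate 1 or 2 or KO chow replicate 1 or 2 (adjusted p = 0.0739 to 0.0982). In bulk tissue, fewer cells of a type and less RNA per cell cannot be told apart. The part of this shift in the hepatocyte genes named here was not tested, and the pericentral hepatocyte genes differed in the other direction.

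In methionine and choline metabolism, 3 of 24 genes were called higher in KO chow and 1 lower (median 0.18). Gnmt, which uses up S-adenosylmethionine, had 852 and 958 CPM in KO chow and 348, 274 and 413 CPM in WT CDAHFD (1.39, adjusted p = 0.00781). Cth, which makes cysteine from cystathionine, had 499 and 495 CPM in KO chow and 215, 218 and 251 CPM in WT CDAHFD (1.12, adjusted p = 0.00413). Cbs, which makes cystathionine, had 653 and 703 CPM in KO chow and 368, 334 and 407 CPM in WT CDAHFD (0.88, adjusted p = 0.0303). The exception was Mat2a, the methionine adenosyltransferase that predominates outside mature hepatocytes, with 102 and 92.5 CPM in KO chow and 194, 231 and 185 CPM in WT CDAHFD (-1.06, adjusted p = 0.00852). Gnmt and Cth kept their calls under each alternative fit. Cbs lost its call without WT CDAHFD replicate 1, 2 or 3 or KO chow replicate 1 or 2 (adjusted p = 0.0559 to 0.12) and Mat2a without KO chow replicate 1 or 2 (adjusted p = 0.0526 to 0.0608). Pemt, which methylates phosphatidylethanolamine to phosphatidylcholine, had 285 and 256 CPM in KO chow and 212, 190.4 and 230.4 CPM in WT CDAHFD and was not called (0.36, adjusted p = 0.205).

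Of 16 genes of VLDL and apolipoproteins, 4 were called higher in KO chow and 0 lower (median 0.31; DESeq2 called 7 and 0, unadjusted p under 0.05 8 and 0). Apoa4, an apolipoprotein of triglyceride-rich particles, had 966 and 943 CPM in KO chow and 495, 566 and 433 CPM in WT CDAHFD (0.94, adjusted p = 0.00557). Both states were far above WT chow, which had 52, 36.7, 51.2 and 48.1 CPM of Apoa4. Tm6sf2, which helps to load lipid onto VLDL, had 36.8 and 42.6 CPM in KO chow and 21.9, 19.1 and 24.8 CPM in WT CDAHFD (0.86, adjusted p = 0.0109). Lcat, which esterifies cholesterol in plasma (0.50, adjusted p = 0.034), and Apoc1 (0.82, adjusted p = 0.0393) were the other two. The call of Apoa4 ended without KO chow replicate 1 (adjusted p = 0.0564), that of Tm6sf2 without WT CDAHFD replicate 2 or KO chow replicate 2 (adjusted p = 0.0529 to 0.0674), that of Lcat without WT CDAHFD replicate 1 or 2, KO chow replicate 1 or 2 or KO CDAHFD replicate 1 (adjusted p = 0.0571 to 0.131) or with total counts as the only scaling (adjusted p = 0.0797) and that of Apoc1 without WT CDAHFD replicate 1, 2 or 3, KO chow replicate 1 or 2 or KO CDAHFD replicate 1 (adjusted p = 0.0591 to 0.142). Of 22 genes of glucose metabolism 2 were called higher and 1 lower (median 0.13, but -0.02 with total counts as the only scaling). Fbp1, the gluconeogenic fructose bisphosphatase, had 1157 and 1318 CPM in KO chow and 590.2, 452 and 624 CPM in WT CDAHFD (1.16, adjusted p = 0.00564) and kept its call. G6pdx, the entry of the pentose phosphate pathway, which overlaps Ikbkg, was lower (-0.97, adjusted p = 0.0335) and lost its call without WT CDAHFD replicate 1 or 2, KO chow replicate 1 or 2 or KO CDAHFD replicate 1 (adjusted p = 0.0538 to 0.28).

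Bile acid synthesis held 1 call among 14 genes (median 0.23). Cyp8b1, which directs synthesis toward cholic acid, was lower in KO chow, with 75 and 94.1 CPM in KO chow and 217, 165 and 174 CPM in WT CDAHFD (-1.13, adjusted p = 0.00804), a call that ended without KO chow replicate 1 (adjusted p = 0.114). In this list, DESeq2 called 0 higher and 3 lower, and at an unadjusted p under 0.05 there were 2 higher and 3 lower. Cyp7a1, the rate-limiting enzyme, had 93.1 and 292 CPM in KO chow and 75.1, 66.6 and 122 CPM in WT CDAHFD, overlapped between the groups and was not called (1.13, adjusted p = 0.327). Among 16 transporters (median -0.10) Abcc4, which pumps bile acids into the blood, was the one call and was higher in KO chow, with 17.5 and 41.7 CPM in KO chow and 10.7, 9.34 and 7.3 CPM in WT CDAHFD (1.70, adjusted p = 0.00536), a call that ended without KO chow replicate 2 (adjusted p = 0.0595). The balance of the transporters ran the other way by other counts, as DESeq2 called 1 higher and 4 lower, and at an unadjusted p under 0.05 there were 1 higher and 5 lower. Of 24 nuclear receptors and coactivators (median -0.10), Esrrg was the one called, lower in KO chow, with 0 and 0.121 CPM in KO chow and 0.717, 0.835 and 1.18 CPM in WT CDAHFD (-3.77, adjusted p = 0.00656), and the call ended without KO chow replicate 1 (adjusted p = 0.0509). Of these receptors, DESeq2 called 0 higher and 3 lower, and at an unadjusted p under 0.05 there were 3 higher and 3 lower. The Esrrg value rested on 0 and 5 counts in KO chow and ranged from -8.1 to -2.88 over the alternative fits.

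The cytochrome P450 genes of families 1 to 3 split into those higher in KO chow and those higher in WT CDAHFD. Of 34 tested, 11 were called higher and 4 lower in KO chow (median 0.36), and the 11 became 7, 6 and 7 without WT CDAHFD replicate 1, WT CDAHFD replicate 2 and KO chow replicate 1. Cyp2c29 had 153 and 195 CPM in KO chow and 24.4, 20.4 and 32.5 CPM in WT CDAHFD (2.76, SE 0.21, adjusted p = 2.28e-05). Cyp2u1, a fatty acid hydroxylase, had 15.4 and 16.2 CPM in KO chow and 4.65, 5.5 and 6.86 CPM in WT CDAHFD (1.48, adjusted p = 0.000819). In the other direction, Cyp2c50, of the same subfamily as Cyp2c29, had 35.5 and 50.5 CPM in KO chow and 224, 207 and 232 CPM in WT CDAHFD (-2.36, SE 0.26, adjusted p = 0.000366). These 3 genes kept their calls under each alternative fit. Cyp2b10, the classical target of the receptor CAR, had 2.75 and 7.59 CPM in KO chow and 0.184, 0.214 and 0.175 CPM in WT CDAHFD (4.73, SE 0.67, adjusted p = 0.00412). It had a count of 0 in all 4 WT chow libraries and 0.0727, 0.214 and 0 CPM in KO CDAHFD, so that KO chow stood apart from every other group. Cyp genes of a subfamily are close in sequence and can exchange reads.

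Sex-biased genes differed as well, although all mice were male. Of 13 female-biased liver genes 4 were called higher in KO chow and 0 lower (median 0.38; DESeq2 called 5 and 0, unadjusted p under 0.05 5 and 2). Cyp2a4 (ENSMUSG00000074254, chr7:26307169-26315088), a steroid hydroxylase, had 68.8 and 304 CPM in KO chow and 4.83, 6.04 and 6.95 CPM in WT CDAHFD (4.97, SE 0.72, adjusted p = 0.00194). WT chow had 0.0388, 0.252, 0.367 and 0.321 CPM of it and KO CDAHFD 28.1, 33.8 and 147 CPM, with a wide spread inside both KO groups. Cyp17a1, another steroid hydroxylase, had 44 and 59.6 CPM in KO chow and 1.52, 2.85 and 2.67 CPM in WT CDAHFD (4.46, SE 0.53, adjusted p = 0.000722). Cyp3a44 (4.32, adjusted p = 0.0155) and the prolactin receptor gene Prlr (1.03, adjusted p = 0.0154) were the other two, of which Cyp3a44 lost its call without WT CDAHFD replicate 2 or KO chow replicate 1 (adjusted p = 0.0718 to 0.115) and Prlr without WT CDAHFD replicate 1 or KO chow replicate 2 (adjusted p = 0.0732 to 0.123). Cyp2a4, Cyp2b10 and Cyp17a1 kept theirs under each alternative fit.

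Of 18 male-biased genes 5 were called lower in KO chow and 1, Cyp2u1, higher (median -0.56). The named ones of the 5 encode major urinary proteins, pheromone carriers that the male liver secretes. Mup11 (ENSMUSG00000073834, chr4:60658466-60662411) had 0.245 and 0.0485 CPM in KO chow and 16.1, 20.9 and 6.91 CPM in WT CDAHFD (-6.66, SE 0.82, adjusted p = 0.000803). Both were far below the 969, 614, 310.4 and 790.2 CPM of WT chow. Mup17 had 0.19 and 0.0728 CPM in KO chow and 5.08, 11.7 and 0.874 CPM in WT CDAHFD (-5.48, adjusted p = 0.0135). Mup1 had 0.353 and 0.194 CPM in KO chow and 2.15, 5.83 and 1.55 CPM in WT CDAHFD (-3.55, adjusted p = 0.0171). Mup14, outside the list, had 3.89 and 1.36 CPM in KO chow and 55.7, 83.7 and 23.9 CPM in WT CDAHFD (-4.38, adjusted p = 0.0072). For Mup15, with 3 counts in both KO chow libraries together against 501 in WT CDAHFD, the ratio of pooled CPM was 89.2 (exact 95% interval 30.3 to 433.9, for counting error only). Mup11 kept its call, whereas Mup17 lost it without KO chow replicate 1 or 2 (adjusted p = 0.0805 to 0.107), Mup1 without KO chow replicate 1 or 2 (adjusted p = 0.0921 to 0.109), Mup14 without KO chow replicate 2 (adjusted p = 0.0595) and Mup15 without WT chow replicate 2, WT CDAHFD replicate 1 or 2, KO chow replicate 1 or 2 or KO CDAHFD replicate 1 (adjusted p = 0.0514 to 0.24). The number of male-biased genes called lower was 3 without WT CDAHFD replicate 1 or 2 or KO chow replicate 1, and leaving out KO chow replicate 2 gave 1. Mup genes are near-identical copies that can share reads. The growth hormone axis, which sets such biases, held 2 calls among 14 genes (median -0.18), Igfbp3 higher in KO chow (0.80, adjusted p = 0.0167) and Igfbp2 lower (-0.86, adjusted p = 0.0405), lost without WT CDAHFD replicate 1 or 2 or KO chow replicate 1 or 2 (adjusted p = 0.052 to 0.0885) and without WT CDAHFD replicate 1, 2 or 3, KO chow replicate 1 or 2 or KO CDAHFD replicate 1 (adjusted p = 0.0579 to 0.202). For the axis, DESeq2 called 1 higher and 2 lower, and at an unadjusted p under 0.05 there were 2 higher and 5 lower.

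Markers of lipid-associated macrophages differed in 1 direction throughout. Of 18 tested, 12 were called lower in KO chow and 0 higher by edgeR, and all 18 log2 fold changes were negative, with a median of -1.32. DESeq2 called 14 lower and 0 higher, and at an unadjusted p under 0.05 there were 15 and 0. The summed level was 1215 and 1205 CPM in KO chow, 2709 to 3491 CPM in WT CDAHFD, 251 to 376 CPM in WT chow and 3165 to 3501 CPM in KO CDAHFD. In this sum KO chow was therefore above WT chow and below both CDAHFD groups. The order does not hold for each marker, as Fabp5 had 1689, 943, 442 and 606 counts in WT chow and 677 and 787 in KO chow. Gpnmb (ENSMUSG00000029816, chr6:49036546-49070929), a glycoprotein of phagocytes, had 75.6 and 73.2 CPM in KO chow and 782, 796 and 559 CPM in WT CDAHFD (-3.26, SE 0.23, adjusted p = 1.66e-05), or 9.57-fold more in WT CDAHFD. WT chow had 0.349, 0.22, 0.334 and 0.0917 CPM and KO CDAHFD 657, 560.2 and 676 CPM. Trem2 (ENSMUSG00000023992, chr17:48346401-48354147), a receptor for lipids and apolipoproteins, had 19.8 and 17.9 CPM in KO chow and 73.1, 70.4 and 57.1 CPM in WT CDAHFD (-1.83, SE 0.21, adjusted p = 0.000539). It had 0.854, 0.346, 0.567 and 0.321 CPM in WT chow and 71.4, 68.3 and 61.9 CPM in KO CDAHFD, so that KO chow again lay above WT chow and below both CDAHFD groups. Hvcn1, a proton channel of phagocytes that overlaps Tctn1, had 2.18 and 2.06 CPM in KO chow and 10.2, 9.81 and 8.76 CPM in WT CDAHFD (-2.18, adjusted p = 0.00015). The macrophage elastase gene Mmp12 had 79.7 and 143 CPM in KO chow and 479, 448 and 354 CPM in WT CDAHFD (-1.94, adjusted p = 0.000502). The galectin gene Lgals3 had 61.4 and 59.5 CPM in KO chow and 232, 202 and 189 CPM in WT CDAHFD (-1.78, adjusted p = 0.000763). In each of these 5 genes every WT CDAHFD library was the higher, and the calls held under each alternative fit.

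Other markers of this state had smaller or less secure differences. Spp1, osteopontin, had 252 and 140.2 CPM in KO chow and 433, 525 and 314 CPM in WT CDAHFD (-1.11, adjusted p = 0.0473), a call that ended without WT chow replicate 2, 3 or 4, WT CDAHFD replicate 1 or 2, KO chow replicate 1 or 2 or KO CDAHFD replicate 2 (adjusted p = 0.0523 to 0.204). Itgax, the integrin CD11c, had 15.9 and 19.6 CPM in KO chow and 64.3, 61 and 53.8 CPM in WT CDAHFD (-1.75, adjusted p = 0.00222) and kept its call. Fabp5, a fatty acid binding protein, had 18.4 and 19.1 CPM in KO chow and 88.7, 84.2 and 74.6 CPM in WT CDAHFD (-2.14, adjusted p = 0.0154), a call that ended without WT CDAHFD replicate 1 or KO chow replicate 1 or 2 (adjusted p = 0.052 to 0.138). Itgax and Fabp5 were named after their values were seen. The count of called markers was 7 without KO chow replicate 1.

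General macrophage markers lay mostly on the WT CDAHFD side. Of 14, 5 were called lower in KO chow and 0 higher, and 12 log2 fold changes were negative (median -0.51; DESeq2 called 6 and 0, unadjusted p under 0.05 8 and 0). Cd68, a lysosomal protein of macrophages, had 34.4 and 46.3 CPM in KO chow and 108, 105 and 82.2 CPM in WT CDAHFD (-1.29, adjusted p = 0.00556). Lyz2, lysozyme, had 348 and 329 CPM in KO chow and 1150, 1050 and 755 CPM in WT CDAHFD (-1.54, adjusted p = 0.0155). Mpeg1, perforin-2, had 257 and 256 CPM in KO chow and 479.9, 487 and 364 CPM in WT CDAHFD (-0.79, adjusted p = 0.0179). The groups did not overlap in these 3 or in Laptm5, another lysosomal protein, with 74.6 and 86.5 CPM in KO chow and 169, 156 and 135 CPM in WT CDAHFD (-0.93, adjusted p = 0.0221). Cd68 lost its call without KO chow replicate 1 (adjusted p = 0.092), Lyz2 without WT CDAHFD replicate 1 or 2 or KO chow replicate 1 or 2 (adjusted p = 0.0529 to 0.121), Mpeg1 without WT CDAHFD replicate 1 or 2 or KO chow replicate 1 or 2 (adjusted p = 0.0697 to 0.134) and Laptm5 without WT CDAHFD replicate 1 or 2 or KO chow replicate 1 or 2 (adjusted p = 0.0615 to 0.192). The count was 1 without WT CDAHFD replicate 1 or 2 or KO chow replicate 1 or 2. Adgre1, which encodes F4/80, had 53.1 and 76.5 CPM in KO chow and 76, 75.3 and 59.6 CPM in WT CDAHFD, and the groups overlapped (-0.12, adjusted p = 0.832). C1qa, a complement gene named after its values were seen, had 165 and 124 CPM in KO chow and 141, 126 and 125 CPM in WT CDAHFD and overlapped as well (0.14, adjusted p = 0.733). Csf1r, the receptor for the macrophage growth factor CSF-1, also named after its values were seen and overlapping Hmgxb3, had 107 and 145 CPM in KO chow and 197, 183 and 169 CPM in WT CDAHFD. Its groups did not overlap, the difference did not pass (-0.54, adjusted p = 0.189), and it passed with only the 5 libraries compared (adjusted p = 0.0475). The summed level of the list was 1484 and 1468 CPM in KO chow and 2184 to 2892 CPM in WT CDAHFD, with 364 to 628 CPM in WT chow.

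Kupffer cell markers were on the KO chow side. Of 8, 4 were called higher and 0 lower, and all 8 log2 fold changes were positive (median 1.24; DESeq2 called 5 and 0, unadjusted p under 0.05 6 and 0). Timd4 (ENSMUSG00000055546, chr11:46810800-46844332), a receptor by which resident macrophages bind dying cells, had 13.7 and 17.4 CPM in KO chow and 0.246, 0.311 and 0.677 CPM in WT CDAHFD (5.24, SE 0.57, adjusted p = 0.000333), or 37.9-fold more in KO chow. It had 12, 7.71, 11.8 and 7.38 CPM in WT chow and 1.36, 2.59 and 0.428 CPM in KO CDAHFD, so that both CDAHFD groups lay below both chow groups. Marco (ENSMUSG00000026390, chr1:120474538-120505024), a scavenger receptor, had 81.7 and 125 CPM in KO chow and 12.9, 11.8 and 9.05 CPM in WT CDAHFD (3.20, SE 0.64, adjusted p = 0.0134). KO chow was the highest group, as WT chow had 26.3, 7.9, 15.5 and 11.4 CPM and KO CDAHFD 24.5, 43.3 and 5.04 CPM. Cd163, the haemoglobin scavenger receptor, had 6.58 and 5.53 CPM in KO chow and 1.06, 0.524 and 1.25 CPM in WT CDAHFD (2.68, adjusted p = 0.0171), and Fcna, ficolin A, had 36.1 and 46.5 CPM in KO chow and 18.9, 15.4 and 17.4 CPM in WT CDAHFD (1.26, adjusted p = 0.0441). Clec4f, a lectin specific to Kupffer cells, had 204 and 246 CPM in KO chow and 111, 84.5 and 94.8 CPM in WT CDAHFD. Its groups did not overlap, but the difference did not pass the threshold (1.22, adjusted p = 0.101). It passed with no filter on low counts (adjusted p = 0.00467), with only the 5 libraries compared (adjusted p = 0.00293), with the clock score as a covariate (adjusted p = 0.0389), with DESeq2 (adjusted p = 0.0378) and without KO CDAHFD replicate 3 (adjusted p = 0.00532). Timd4 kept its call under each alternative fit. Marco lost it without WT CDAHFD replicate 1, 2 or 3 or KO chow replicate 2 (adjusted p = 0.0514 to 0.0578), Cd163 without WT CDAHFD replicate 1 or 2 or KO chow replicate 1 (adjusted p = 0.066 to 0.103) and Fcna without WT chow replicate 2, WT CDAHFD replicate 1, 2 or 3 or KO chow replicate 1 or 2 (adjusted p = 0.0517 to 0.15) or with total counts as the only scaling (adjusted p = 0.059). The count was 1 without WT CDAHFD replicate 1 or 2, and 2 without WT CDAHFD replicate 3 or either KO chow library. The summed level was 738 and 968 CPM in KO chow and 424 to 529 CPM in WT CDAHFD, with 288 to 476 CPM in WT chow.

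**Figure D4:**
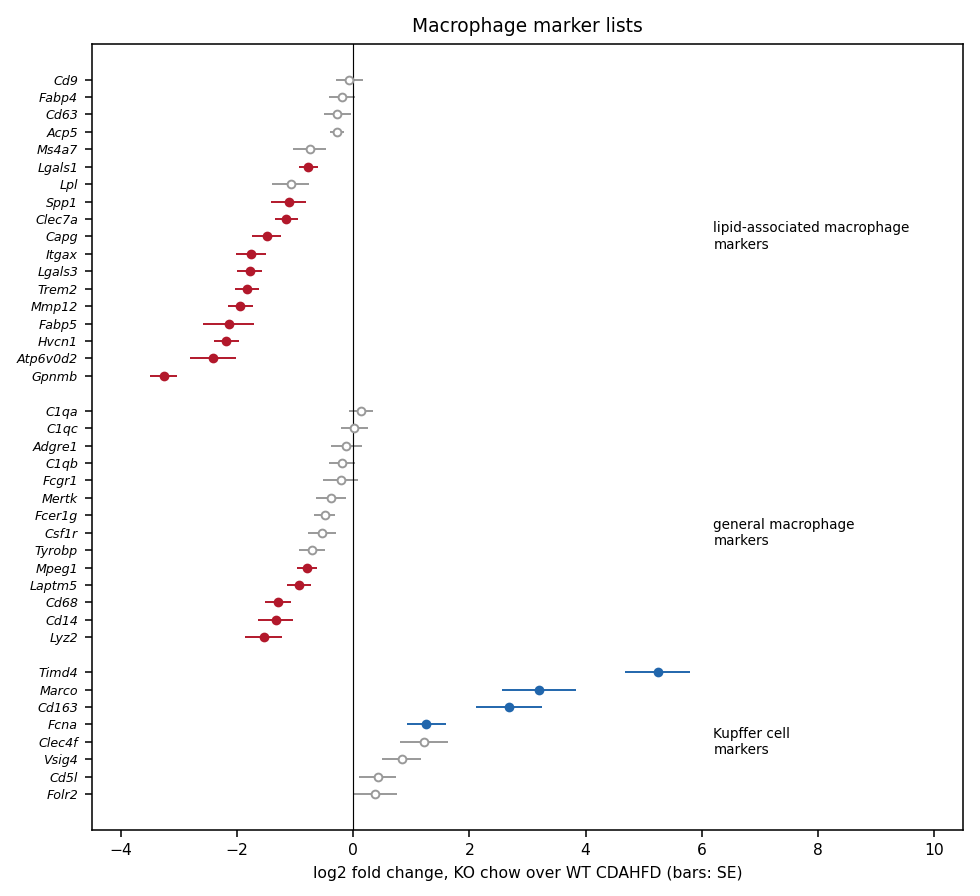
Each row is a marker gene, with its log2 fold change of KO chow over WT CDAHFD on the x axis and bars of 1 SE, filled where called. The 8 Kupffer cell markers lie right of 0 and the 18 lipid-associated macrophage markers left of it, while C1qa and Adgre1 lie near 0.

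The calls by edgeR among lysosomal genes were all lower in KO chow. Of 30, 8 were called lower and 0 higher (median -0.42; DESeq2 called 19 and 1, unadjusted p under 0.05 19 and 2). Negative log2 fold changes were found in 26 of them and positive ones in 4. Psap, the precursor of the saposins that aid lipid breakdown, had 967 and 968 CPM in KO chow and 2167, 1943 and 1763 CPM in WT CDAHFD (-1.02, SE 0.15, adjusted p = 0.00178). Ctsd, cathepsin D, had 439.5 and 421 CPM in KO chow and 810.2, 768 and 658 CPM in WT CDAHFD (-0.79, SE 0.13, adjusted p = 0.00343). Both kept their calls under each alternative fit. Atp6v0d2, a subunit of the proton pump of macrophages and osteoclasts, had 7.53 and 12 CPM in KO chow and 58.7, 54 and 43.4 CPM in WT CDAHFD (-2.41, adjusted p = 0.00402). Ctsk, cathepsin K, had 4.76 and 2.74 CPM in KO chow and 16.6, 14.8 and 10.2 CPM in WT CDAHFD (-1.89, adjusted p = 0.00536). Atp6v0d2 lost its call without KO chow replicate 1 (adjusted p = 0.0678) and Ctsk without KO chow replicate 2 (adjusted p = 0.0513). Leaving out KO chow replicate 1 gave a count of 5 and replicate 2 a count of 3, against 19 with total counts as the only scaling. The part of macrophage numbers in these levels was not tested.

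PU.1 is a factor of macrophages, and TFEB binds the CLEAR core at lysosomal genes. Promoter windows of 5 called genes from these lists are shown for the letters of AP-1 (TGANTCA), PU.1 (GAGGAAGT) and the CLEAR core (TCACGTGA). They are 60 bases from RefSeq (GRCm38.p6), 5′ to 3′ on the strand of the gene and upstream of a start, chosen after the matches were seen, with the motif in capitals. The first 3 hold AP-1 letters, the next 2 PU.1 letters, on the opposite strand in Mmp12, and the last the CLEAR core:
Trem2 (chr17:48346341-48346400, plus strand): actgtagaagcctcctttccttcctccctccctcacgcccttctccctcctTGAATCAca
Itgax (chr7:128129468-128129527, plus strand): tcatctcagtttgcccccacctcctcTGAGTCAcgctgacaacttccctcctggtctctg
Mmp12 (chr9:7347304-7347363, plus strand): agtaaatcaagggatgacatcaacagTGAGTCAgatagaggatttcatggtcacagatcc
Mmp12 (chr9:7344283-7344342, plus strand): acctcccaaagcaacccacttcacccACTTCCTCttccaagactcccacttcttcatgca
Spp1 (chr5:104434972-104435031, plus strand): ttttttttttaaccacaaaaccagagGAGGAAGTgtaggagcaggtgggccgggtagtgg
Ctsd (chr7:142387893-142387952, minus strand): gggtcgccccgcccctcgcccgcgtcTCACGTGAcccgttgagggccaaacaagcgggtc
The 2 windows of Mmp12 belong to separate starts. AP-1 letters were in 9.05% of the 300-base promoters of genes called lower in KO chow, 6.38% of those called higher and 5.79% of all tested. For PU.1 the shares were 5.92%, 2.51% and 3.17%, and for the CLEAR core, which contains the E-box CACGTG, 0.987%, 0.683% and 1.67%. Of 18 promoters of the lipid-associated macrophage markers 5 held AP-1 letters, and of 29 lysosomal promoters 6 held the CLEAR core. Both strands were searched and no test was made.

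Markers of other cell types were examined in the same way. Of 11 stellate cell, 10 neutrophil, 7 dendritic cell, 14 T and NK cell, and 6 B and plasma cell markers tested, 0 were called by edgeR, while DESeq2 called 1 dendritic cell marker lower and 1 T and NK cell marker higher. At an unadjusted p under 0.05 there were 2 stellate, 0 neutrophil, 1 dendritic, 1 T and NK, and 1 B and plasma cell markers. Of 8 monocyte markers (median 0.07) Itgam, the integrin CD11b, was called lower in KO chow, with 4.11 and 3.32 CPM in KO chow and 13, 14.1 and 9.33 CPM in WT CDAHFD (-1.71, adjusted p = 0.0106), a call that ended without KO chow replicate 1 or 2 (adjusted p = 0.0674 to 0.0676). Among 12 sinusoidal endothelial markers (median 0.62) Cdh5, the cadherin of endothelial junctions, was called higher (1.02, adjusted p = 0.0369), and so was Gpr182 (0.98, adjusted p = 0.0482), which overlaps Zbtb39. Of these endothelial markers, DESeq2 called 4 higher and 0 lower, and at an unadjusted p under 0.05 there were 7 higher and 1 lower. Cdh5 lost its call without WT chow replicate 2, WT CDAHFD replicate 1, 2 or 3 or KO chow replicate 2 (adjusted p = 0.0514 to 0.245) or with total counts as the only scaling (adjusted p = 0.0879) and Gpr182 without WT chow replicate 1, 2, 3 or 4, WT CDAHFD replicate 1, 2 or 3, KO chow replicate 1 or 2 or KO CDAHFD replicate 2 (adjusted p = 0.054 to 0.182) or with total counts as the only scaling (adjusted p = 0.113) or with the size factors of DESeq2 (adjusted p = 0.0604). Of 10 cholangiocyte markers (median -0.62) Cftr, the chloride channel, was called lower (-1.21, adjusted p = 0.0449), a call that ended without WT CDAHFD replicate 1, 2 or 3, KO chow replicate 1 or 2 or KO CDAHFD replicate 1 or 2 (adjusted p = 0.0568 to 0.299). For cholangiocytes, DESeq2 called 1 higher and 2 lower, and at an unadjusted p under 0.05 there were 1 higher and 4 lower. Of 5 haemoglobin genes 4 were called higher in KO chow (median 1.81), and their summed level, a sign of blood in the tissue, was 460.2 and 251 CPM in KO chow and 138 to 154 CPM in WT CDAHFD, with 318 to 444 CPM in WT chow. Their count was 0 without KO chow replicate 1, the library with the higher level, 1 without WT CDAHFD replicate 1 or 2, and 2 without WT CDAHFD replicate 3.

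Matrix and proliferation genes held 1 call. Of 27 matrix genes (median -0.21), of which 23 had a negative log2 fold change, Mmp12 was called lower in KO chow. Col1a1, the main fibrillar collagen gene, had 180 and 149 CPM in KO chow and 259.8, 244 and 231 CPM in WT CDAHFD (-0.58, adjusted p = 0.541), against 20.3, 4.44, 4.43 and 4.72 CPM in WT chow. It passed with only the 5 libraries compared (adjusted p = 0.0226) and without WT chow replicate 1 (adjusted p = 0.046). Of 23 genes of DNA replication and 26 of mitosis 0 were called by edgeR or DESeq2, and the medians were 0.29 and 0.51. At an unadjusted p under 0.05 from edgeR there were 4 and 5 higher and 0 lower. Both shares were below that of all genes tested, 4168 of 17358 in either direction. All 23 replication genes and 24 of the 26 mitosis genes had a positive log2 fold change. Mki67, a marker of cycling cells, had 50.7 and 37.6 CPM in KO chow and 46.6, 45 and 41 CPM in WT CDAHFD and overlapped (-0.00, adjusted p = 0.997). WT chow was below both states in Col1a1 and Mki67, the latter with 2.25, 1.57, 2.47 and 2.11 CPM. The 23 genes of the unfolded protein and integrated stress response held 0 calls by edgeR and 1 higher by DESeq2, with 3 higher at an unadjusted p under 0.05. The 9 MHC class II genes held 0 by both and 0 at an unadjusted p under 0.05, and the 14 genes of DNA methylation 0 by edgeR and 2 lower by DESeq2, with 3 lower at an unadjusted p under 0.05.

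Inflammatory signals and acute phase genes were called in both directions. Cxcl9, a chemokine that interferon induces, was higher in KO chow, with 71.4 and 41.8 CPM in KO chow and 17.8, 16.1 and 17.5 CPM in WT CDAHFD (1.73, adjusted p = 0.00396), and was the one call of 23 interferon-induced genes. Cxcl14 was lower, with 9.14 and 7.3 CPM in KO chow and 25.1, 25.2 and 19.6 CPM in WT CDAHFD (-1.50, adjusted p = 0.0065). Of 26 chemokines and receptors 1 was called higher and 2 lower (median -0.26). By other counts of that list, DESeq2 called 2 higher and 6 lower, and at an unadjusted p under 0.05 there were 2 higher and 7 lower. Cxcl9 lost its call without KO chow replicate 1 (adjusted p = 0.0701) and Cxcl14 without KO chow replicate 2 (adjusted p = 0.0565). Of 25 acute phase genes 2 were higher and 2 lower. Hamp, the iron hormone hepcidin, had 1312 and 1304 CPM in KO chow and 407, 324 and 481 CPM in WT CDAHFD (1.69, adjusted p = 0.00402), and its relative Hamp2 differed in the same direction (3.39, adjusted p = 0.0298). Orm3, an orosomucoid, had 0.353 and 0.145 CPM in KO chow and 4.41, 5.38 and 2.56 CPM in WT CDAHFD (-4.05, adjusted p = 0.000722), and Serpina3n, a protease inhibitor, was lower too (-0.62, adjusted p = 0.0364). Hamp and Orm3 kept their calls under each alternative fit, while Hamp2 lost its call without WT CDAHFD replicate 1, 2 or 3 or KO chow replicate 2 (adjusted p = 0.0618 to 0.164) and Serpina3n without WT CDAHFD replicate 1 or 2, KO chow replicate 1 or KO CDAHFD replicate 1 (adjusted p = 0.0591 to 0.289).

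In the NRF2 and ferroptosis list of 24, the cystine transporter gene Slc7a11 was higher in KO chow, with 23.8 and 30.9 CPM in KO chow and 11.6, 12.1 and 7.91 CPM in WT CDAHFD (1.38, adjusted p = 0.00679), as was Acsl4 (0.67, adjusted p = 0.0428), which loads polyunsaturated fatty acids into phospholipids, and G6pdx was the one lower. Slc7a11 lost its call without KO chow replicate 2 (adjusted p = 0.0567) and Acsl4 without WT chow replicate 2 or 4, WT CDAHFD replicate 1, 2 or 3, KO chow replicate 1 or 2 or KO CDAHFD replicate 1 or 2 (adjusted p = 0.0537 to 0.204) or with total counts as the only scaling (adjusted p = 0.131) or with the size factors of DESeq2 (adjusted p = 0.0555). Of 12 annexins and S100 proteins 3 were called, all lower in KO chow. Anxa1, an annexin that dampens inflammation, had 18.8 and 13.8 CPM in KO chow and 60.1, 65.3 and 45.7 CPM in WT CDAHFD (-1.81, adjusted p = 0.00314) and kept its call. Anxa3 (-1.01, adjusted p = 0.039) lost its call without WT CDAHFD replicate 1, 2 or 3, KO chow replicate 1 or 2 or KO CDAHFD replicate 1 or 2 (adjusted p = 0.0514 to 0.149) and Anxa4 (-0.43, adjusted p = 0.0366) without WT CDAHFD replicate 1, 2 or 3, KO chow replicate 1 or 2 or KO CDAHFD replicate 1 (adjusted p = 0.0538 to 0.174) or with no filter on low counts (adjusted p = 0.0886). Of 10 oncofetal genes the imprinted transcript H19 was higher in KO chow, with 39.2 and 47.5 CPM in KO chow and 9.79, 7.77 and 12.1 CPM in WT CDAHFD (2.13, adjusted p = 0.000784), and Ly6d was lower, with 37.8 and 35 CPM in KO chow and 66.6, 70 and 57.4 CPM in WT CDAHFD (-0.83, adjusted p = 0.0199). WT chow had at most traces of both, 0.117, 0, 0.0667 and 0.0459 CPM of H19 and 0.582, 0.472, 0.467 and 0.183 CPM of Ly6d. H19 kept its call and Ly6d lost it without WT CDAHFD replicate 1 or 2 or KO chow replicate 1 or 2 (adjusted p = 0.0785 to 0.12). Klf6 (-0.69, adjusted p = 0.0209), Sesn1 (-0.55, adjusted p = 0.0386) and P2rx7 (-0.79, adjusted p = 0.0362) were the single calls, all lower in KO chow, of 16 immediate early genes, 12 p53 targets and 20 inflammasome genes, and were lost without WT CDAHFD replicate 1 or 2 or KO chow replicate 1 or 2 (adjusted p = 0.0739 to 0.163), without WT CDAHFD replicate 1, 2 or 3, KO chow replicate 1 or 2 or KO CDAHFD replicate 1 (adjusted p = 0.0617 to 0.261) or with no filter on low counts (adjusted p = 0.0558) and without WT CDAHFD replicate 1, 2 or 3, KO chow replicate 1 or KO CDAHFD replicate 1 (adjusted p = 0.0577 to 0.313). Of the immediate early genes, 14 of which had a negative log2 fold change, DESeq2 called 0 higher and 2 lower, and at an unadjusted p under 0.05 there were 0 higher and 4 lower. For the p53 targets, DESeq2 called 0 higher and 1 lower, and at an unadjusted p under 0.05 there were 2 higher and 1 lower, and for the inflammasome genes, DESeq2 called 0 higher and 3 lower, and at an unadjusted p under 0.05 there were 1 higher and 5 lower.

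Of the 12 genes lowest in KO chow, 3 were non-coding transcripts of 1 imprinted cluster on chromosome 12. Meg3 (ENSMUSG00000021268, chr12:109541001-109571726) had 3.32 and 3.3 CPM in KO chow and 58.9, 74.7 and 92.3 CPM in WT CDAHFD (-4.51, SE 0.32, adjusted p = 1.66e-05), or 22.7-fold more in WT CDAHFD. Rian (ENSMUSG00000097451, chr12:109603940-109661716) had 3.13 and 3.23 CPM in KO chow and 40.3, 54.1 and 64 CPM in WT CDAHFD (-4.05, SE 0.33, adjusted p = 5.19e-05). Mirg (ENSMUSG00000097391, chr12:109729764-109749460), a host of microRNAs, had 0.0544 and 0.145 CPM in KO chow and 2.07, 2.31 and 2.47 CPM in WT CDAHFD (-4.44, SE 0.65, adjusted p = 0.00222). Both CDAHFD groups were high, as KO CDAHFD had 124, 100.5 and 76.3 CPM of Meg3 and 73.9, 79.1 and 49.9 CPM of Rian. WT chow was low, with 2.33, 1.86, 1.03 and 1.65 CPM of Meg3 and 0.932, 1.13, 0.367 and 0.826 CPM of Rian. KO chow differed from WT chow by 0.95 (adjusted p = 0.0174) for Meg3 and 1.96 (adjusted p = 0.00039) for Rian. The 3 calls held under each alternative fit.

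Other genes at the ends of the ranking belonged to no list. Tff3, a trefoil peptide of mucosa, had 58.5 and 32.7 CPM in KO chow and 1, 2.82 and 1.27 CPM in WT CDAHFD (4.74, adjusted p = 0.00162). Esm1, an endothelial proteoglycan, had 5.6 and 5.12 CPM in KO chow and 0.717, 0.563 and 0.218 CPM in WT CDAHFD (3.41, adjusted p = 0.00146). Mmd2 had 20.7 and 31.4 CPM in KO chow and 2.5, 1.55 and 2.91 CPM in WT CDAHFD (3.49, adjusted p = 9.35e-05). These 3 were higher in both KO chow libraries, as were Nup62cl, with 3.54 and 3.71 CPM in KO chow and 0.205, 0.0971 and 0.197 CPM in WT CDAHFD (4.43, adjusted p = 0.00015), and Sertm1, with 3.92 and 3.59 CPM in KO chow and 0.041, 0.0777 and 0.175 CPM in WT CDAHFD (5.23, adjusted p = 0.00146), and all 5 kept their calls. Hist1h2bq, a histone gene with near-identical copies, had 4 and 3.27 CPM in KO chow and 0.0819, 0.0971 and 0.0437 CPM in WT CDAHFD (5.54, adjusted p = 0.0267), a call that ended without WT CDAHFD replicate 1, 2 or 3 or KO chow replicate 1 or 2 (adjusted p = 0.0561 to 0.113). In WT chow Hist1h2bq had 4, 2, 147 and 84 counts and in KO CDAHFD 193, 140 and 101, so it also varied widely within WT chow. On the other side, the transcription factor gene Rfx4 had 0.218 and 0.436 CPM in KO chow and 6.95, 5.48 and 6.53 CPM in WT CDAHFD (-4.24, adjusted p = 0.00015) and kept its call. Sema5b, a semaphorin gene, had 0.0272 and 0.17 CPM in KO chow and 1.74, 1.55 and 1.75 CPM in WT CDAHFD (-4.01, adjusted p = 0.0139) and lost its call without KO chow replicate 1 (adjusted p = 0.139).

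**Figure D5:**
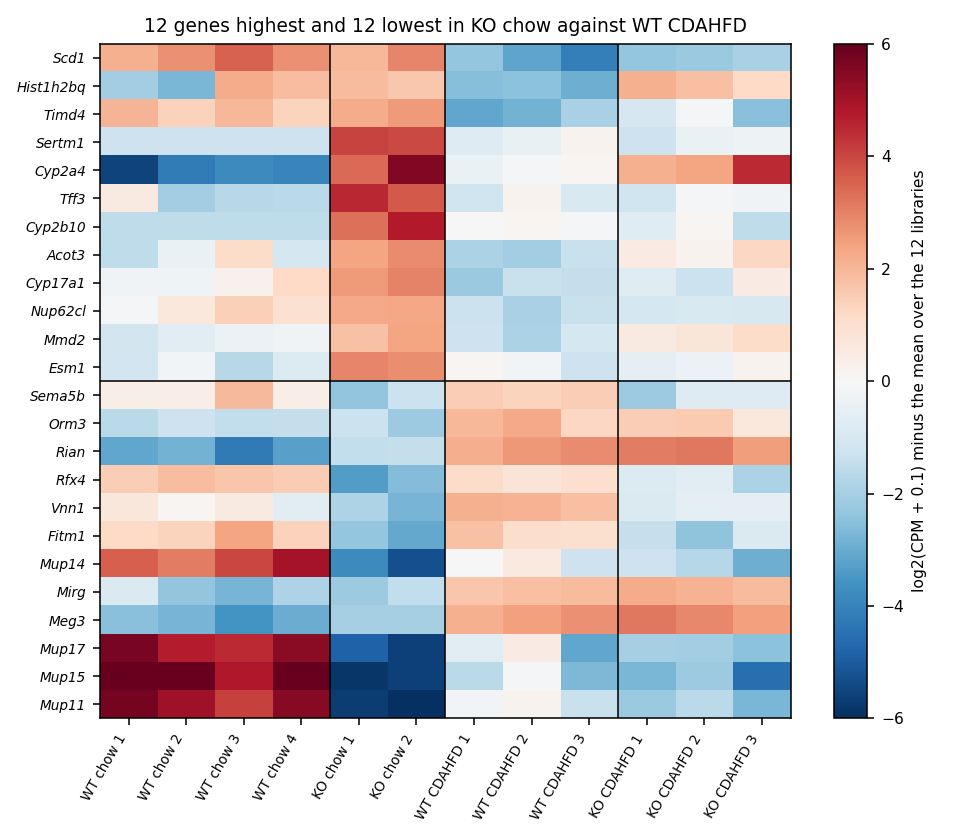
Rows are the 12 genes named for the largest and the 12 named for the smallest log2 fold change, columns are the 12 libraries, and colour gives log2(CPM + 0.1) minus the mean of the gene over all libraries, ending at -6 and 6. Scd1 and Timd4 are high in both chow groups, Sertm1 and Esm1 in KO chow alone, and Meg3, Rian and Mirg in both CDAHFD groups.

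Genes whose level followed Scd1 or Gpnmb over all 12 libraries were listed as a description. Highest for Scd1 were Fh1, Gsto1, Gls2, Whamm, Ubr7 and Etnppl, with Pearson r of 0.952 to 0.964, on log2(CPM + 0.1). All but Ubr7 (0.29, adjusted p = 0.113) were called higher in KO chow. Etnppl, a phospholyase of ethanolamine phosphate, had 196 and 339 CPM in KO chow and 43.1, 33.6 and 54.7 CPM in WT CDAHFD (2.61, adjusted p = 0.00138). Highest for Gpnmb were Trem2, Arhgap25, Clec7a, Pla2g7, Pkm and Lgals3, with r of 0.996 to 0.998, and all 6 were called lower. Pla2g7, which hydrolyses platelet-activating factor, had 19.9 and 19.4 CPM in KO chow and 45.9, 43.1 and 35.2 CPM in WT CDAHFD (-1.08, adjusted p = 0.0013). Clec7a lost its call without KO chow replicate 1 (adjusted p = 0.088) and Pkm without WT CDAHFD replicate 1 or 2 or KO chow replicate 1 or 2 (adjusted p = 0.0615 to 0.144). The 12 points fall into 4 groups and share the scaling of their libraries.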

How the data were processed

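Liver mRNA of 12 mice was sequenced from poly-A selected, non-directional libraries. The deposited values are raw read counts per Ensembl gene. Per the study's methods and the submitters' processing notes, the authors used FastQC 0.11.5 and aligned with STAR 2.7.3a to GRCm38. The counter and annotation release are not given in the sources used here. GENCODE M21 gave positions, and symbols for 94.08% of 55357 identifiers.

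In edgeR 4.0.16, counts were filtered (filterByExpr), scaled (TMM) and fitted with 4 group means over all 12 libraries (glmQLFit, glmQLFTest), with Benjamini-Hochberg adjustment over 17358 genes and a threshold of 0.05. The SE is the absolute log2 fold change over the square root of F. P-values measure the spread between libraries. Scripts were tested on simulated data. Genes named as overlapping share ground with another gene that holds at least 10% of their counts; these and close paralogs can share reads.

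The comparison and the 52 gene lists were chosen with earlier results of these data known. Named are Ppara, the 12 largest and 12 smallest changes among called genes (mean of at least 50 counts, groups apart, symbols other than Gm, Rik or pseudogenes), up to 4 called members per list by adjusted p, defining members, and the 6 genes most like Scd1 and Gpnmb; some of these genes are not reported here. Alternatives were DESeq2 1.42.0, other scalings, no filter on low counts, only the 5 libraries compared, a replicate block, a clock score as a covariate and each library left out, and, for counts of calls, an absolute log2 fold change of at least 1.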

Additional observations from a re-analysis of the deposited data

Results flagged for a closer look

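One WT chow library stood apart for Fitm1, with 13.6 CPM against 5.94 to 6.79 CPM in the other 3, a gap of 0.889 of the range of the group. It was the 1 such case among 27 WT chow groups of values looked at, where chance gives about 1 in 20. That count covers those groups only. For Col1a1, WT chow replicate 1 also stood apart, with 524 counts against 141, 133 and 103 in the other 3 libraries.

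For 19 genes the change from chow to CDAHFD, on the log2 scale, was compared between KO and WT mice. An interaction term in edgeR was used, with adjustment over all genes tested, and 10 differed. These genes were among those named for the comparison of KO chow with WT CDAHFD, whose libraries enter the term. The share of all genes tested that differed is not given here, so the 10 is no result about these genes as a group. Of 4 macrophage genes, 2 rose by more in WT: Gpnmb changed by 3.08 in KO and 11.4 in WT (difference -8.34, SE 0.319, adjusted p = 1.28e-08), and Trem2 by 1.83 in KO and 6.99 in WT (-5.16, SE 0.296, adjusted p = 6.33e-07). The other two, Timd4, with -3.42 in KO and -4.57 in WT (1.15, SE 0.713, adjusted p = 0.283), and Marco, with -2.09 in KO and -0.44 in WT (-1.65, SE 0.816, adjusted p = 0.173), did not pass. The WT changes of Gpnmb and Trem2 start from few counts in WT chow, 9, 7, 10 and 2 for Gpnmb and 22, 11, 17 and 7 for Trem2. In CPM, KO CDAHFD and WT CDAHFD overlapped for both genes. Of 4 pericentral genes, 3 rose in KO and did so by less or not at all in WT: Glul changed by 2.59 in KO and -0.04 in WT (2.63, SE 0.167, adjusted p = 1.07e-06), Cyp1a2 by 2.11 in KO and -0.41 in WT (2.53, SE 0.234, adjusted p = 1.3e-05) and Rhbg by 3.65 in KO and 1.76 in WT (1.9, SE 0.41, adjusted p = 0.00499). Slc13a3, with 1.99 in KO and 2.19 in WT (-0.201, SE 0.219, adjusted p = 0.568), did not pass. Among lipid genes, Thrsp changed by -0.58 in KO and -4.11 in WT (3.53, SE 0.31, adjusted p = 9.85e-06) and Acot1 by -1.83 in KO and -0.58 in WT (-1.24, SE 0.394, adjusted p = 0.0376). Those that did not pass were Scd1 (difference 1.19, SE 0.608, adjusted p = 0.187), Vnn1 (-0.18, SE 0.437, adjusted p = 0.815), Fitm1 (1.84, SE 0.707, adjusted p = 0.0808) and Plin4 (-0.804, SE 0.396, adjusted p = 0.17), and also Ppara (1.74, SE 0.619, adjusted p = 0.0605). Rian changed by 4.41 in KO and 6.01 in WT (-1.6, SE 0.402, adjusted p = 0.0121), and Meg3 of the same cluster did not pass (-0.536, SE 0.361, adjusted p = 0.324). The cytochrome P450 gene Cyp2a4 changed by -1.42 in KO and 4.57 in WT (-6, SE 1.08, adjusted p = 0.00151). Cyp2b10 changed by -5.76 in KO and 5.88 in WT (-11.6, SE 1.56, adjusted p = 0.000543), where the WT chow libraries have a count of 0, so that these fitted values are no bounds.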

How the results depend on the processing

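Of the 137 named genes that were called, 58 kept their direction and call in all 19 alternatives of the fit. Leaving out single libraries gave 260 to 1469 calls in all, 117 to 663 higher and 143 to 806 lower in KO chow. Calls in all, higher and lower were 1985, 860 and 1125 with only the 5 libraries compared, 2459, 1216 and 1243 with the clock score as a covariate, which kept all 1063 genes, 2062, 866 and 1196 with DESeq2, and 538, 177 and 361 with an absolute log2 fold change of at least 1. With total counts as the only scaling there were 242 higher and 1025 lower. The replicate block gave 731 calls, 270 of them higher, and shared 650 with the fit without it; it ended the calls of 22 named genes. Deviations of same-numbered libraries correlated at -0.0116 and -0.024 in the 2 pairs of the comparison and at -0.242 to 0.266 over all 15 pairs, and the numbers are only shared names. The block left 2 Kupffer cell markers called. With single libraries left out, 1 to 6 Kupffer cell markers, 2 to 6 thioesterases, 6 to 14 amino acid genes, 6 to 12 cytochrome P450 genes, 0 to 5 haemoglobin genes and 2 to 4 lipogenesis enzymes were called higher in KO chow, and 1 to 7 general macrophage markers, 7 to 13 lipid-associated macrophage markers, 3 to 11 lysosomal genes, 1 to 5 male-biased genes, 4 to 7 other PPARα targets and 4 to 8 pericentral genes lower. Thioesterases called higher were 3 with total counts and 3 with the fold threshold, which also left 7 amino acid genes and 2 lipogenesis enzymes higher, and 3 general macrophage and 4 lysosomal genes lower. With only the 5 libraries, 8 general macrophage markers were lower. Lysosomal genes called lower were 19 with total counts, 15 with only the 5 libraries, 14 with the clock score and 19 with DESeq2. None of the genes that changed sign was called. With single libraries left out, Adgre1 ranged from -0.41 to 0.11, C1qa from -0.0915 to 0.33, Cpt1a from -0.70 to 0.15, Fgf21 from -0.50 to 0.50 and Mki67 from -0.24 to 0.20. C1qa had -0.0154 with total counts and Mki67 0.0317 with the clock score. The causes were not tested. The 2 KO chow libraries limit precision: with 1 left out, the other is assumed to vary like the remaining groups.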
